A study of Mus musculus with 4 samples.

Results

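Mammary tumours of mice carrying the MMTV-PAX8PPARg transgene were compared with tumours of wild-type (WT) mice, both under placebo. The comparison used 2 of the 4 arrays of the study, with 1 array a genotype, and covered every gene with a probe set of its own: 12393 genes, each read from its brightest probe set. PAX8PPARg joins the thyroid and kidney transcription factor PAX8 to the nuclear receptor PPARg, and the mouse mammary tumour virus promoter directs it mainly to mammary epithelium. All mice were female, nulliparous and of the FVB strain, and the WT mice were littermates of the same age as the transgenic mice.

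Every group, the controls included, received the same tumour induction. Mice were given 15 mg of the progestin MP (Depo-Provera) under the skin, and then 1 mg of the carcinogen DMBA in 0.1 ml cottonseed oil by gavage in each of 4 weekly doses. Pellets with a release time of 60 days, here of placebo, were placed on the day that followed the final DMBA dose and were replaced after 60 days. The other pair of arrays came from WT and PAX8PPARg mice whose pellets held 2.5 mg RU486, which blocks the receptors of progesterone and of glucocorticoids. Each array was hybridised with 1 pool of RNA from 5 mice in equal amounts, so the spread between mice is not known, the differences are untested, and the precision of each value is limited by how few arrays there are.

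PPARg is the nuclear receptor that drives the formation of fat cells and switches on genes of fat uptake, storage and adipokine secretion. It binds DNA as a partner of RXR, and the PAX8PPARg fusion is known from follicular thyroid tumours, where it can block or mimic PPARg depending on the gene. The mammary gland is an epithelial tree embedded in a fat pad that also holds blood vessels, lymphocytes and a lymph node. Its luminal cells fall into hormone-sensing cells, which carry the estrogen and progesterone receptors, and alveolar cells, which make milk.

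Signals are those deposited, on a linear scale. Differences are PAX8PPARg placebo minus WT placebo on the scale of log2(signal + 16), after each array was centred on its median, so 1 stands for a 2-fold difference and low signals give differences that are too small. The placebo arrays were close in technical respects. The spike-in controls were 1.01 times as bright on the PAX8PPARg array as on the WT array, and the 3' to 5' ratio of Gapdh was 2.51 on the WT and 2.89 on the PAX8PPARg array. The median signal was 163.1 on the WT and 188.4 on the PAX8PPARg array, and centring took 0.19 log2 off each difference. Markers of mammary epithelium were high on both, with Epcam at 6249 in WT and 5564 in PAX8PPARg under placebo, whereas the WT RU486 array stood apart with 479.3. A signal no higher than the brightest of 27 bacterial control probe sets (9.6 on the WT placebo, 8.3 on the PAX8PPARg placebo, 18.5 on the WT RU486 and 35.3 on the PAX8PPARg RU486 array) counts as within the background range, and the size of a difference that rests on it is not exact.

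In the PAX8PPARg placebo pool, 1212 of all 12393 genes (9.78%) were past 2-fold, 531 of them higher (4.28%) and 681 lower (5.50%), with a median of -0.15 and an SD over genes of 0.72. The counts given for gene lists below are to be read beside these shares of 4.28% higher and 5.50% lower. Among the 6197 genes whose mean level reached the median of all genes, 389 (6.28%) were past 2-fold, 117 of them higher (1.89%) and 272 lower (4.39%), so 30.1% of the genes past 2-fold were higher. That split depended on the scaling, since 48.7% were higher without centring and 43.4% with quantile normalization. At 8-fold, 7 of the 6197 genes were higher and 24 lower. For 105 of the genes past 2-fold another probe set reached that level too, and it had the same sign for 104 and was past 2-fold for 82. The exception was Higd1a, with -1.0 and 0.21. Of the 117 higher genes, 98 had their highest signal of the 4 arrays in the PAX8PPARg placebo pool, and of the 272 lower genes, 186 had their lowest there. Over all 6197 genes these shares were 14.2% and 34.4%, and genes chosen as higher or lower on an array are more often at its extremes.

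Most of the genes with the largest differences are described below, and the rest are given here. Among the 20 genes furthest above 0 were Cyp2e1, a drug-oxidizing enzyme gene of liver and fat (327.4 in WT and 3199 in PAX8PPARg, 3.04), Retnla, a resistin-like gene of fat and macrophages (440.6 and 3387, 2.71), and the T cell receptor segments Trav9d-3 (206.2 and 1750.0, 2.80) and Trbv1 (127.9 and 1049.5, 2.70). Tmem158 (293.6 and 2110.0, 2.59), the ribonuclease gene Ear3 (108.1 and 728.1, 2.39) and 1 predicted gene completed them. The 3 probe sets of Tmem158 ranged from -0.13 to 2.59, and the 5 of Trav9d-3 from -0.28 to 2.80. Among the 20 genes furthest below 0 were Tnnt2, the cardiac troponin T gene (1627 and 59.5, -4.63), the skin protease gene Klk8 (1647 and 64.5, -4.56) and Anxa8, an annexin gene of stratified epithelia (1041 and 90.7, -3.50). Folr1, a folate receptor gene (1189.8 and 114.8, -3.39), Aqp3, a water and glycerol channel gene (558.0 and 46.7, -3.38), and the decoy receptor gene Tnfrsf22 (1817 and 210.7, -3.21) followed.

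**Figure D1:**
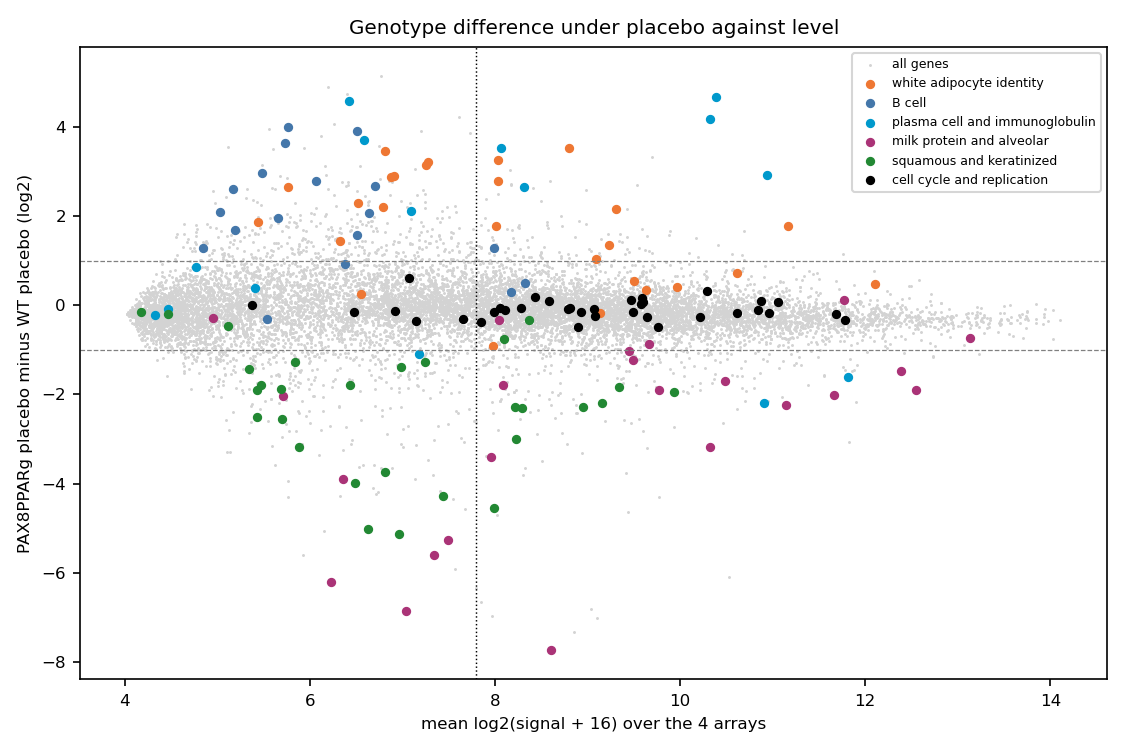
Difference between the PAX8PPARg and WT placebo arrays (log2) against the mean level over the 4 arrays (log2(signal + 16)), with 1 point a gene, members of 6 gene lists in colour, dashed lines at 2-fold and a dotted line at the level filter. Adipocyte, B cell and plasma cell genes lie mostly above the upper dashed line, milk protein and squamous genes mostly below the lower one, and cell cycle genes between the lines.

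The parts of the transgene and their partner receptors were read first. Pax8 read 0.5 on the WT placebo, 0.4 on the PAX8PPARg placebo, 1.8 on the WT RU486 and 3.1 on the PAX8PPARg RU486 array, within the background range on all of them. Pparg read 75.9 on the WT placebo and 497.5 on the PAX8PPARg placebo array, a difference of 2.29, and 35.4 and 13.2 on the RU486 arrays of WT and PAX8PPARg. The PAX8PPARg placebo array thus had the highest Pparg signal and the PAX8PPARg RU486 array the lowest, and no source used here says whether either probe set reads the fusion transcript, so the labels are not checked by these signals. Ppara, the receptor of fatty acid oxidation, read 4.0 within the background range in WT and 57.5 in PAX8PPARg, whereas Ppard read 212.5 and 139.9 (-0.74). The RXR partners gave 0.08 for Rxra, -0.27 for Rxrb and 0.03 for Rxrg, and the 5 probe sets of the coactivator Ppargc1a lay between 0.70 and 1.08. None of the 6 measured thyroid genes that PAX8 is known to control was past 2-fold, and the sodium iodide transporter gene Slc5a5 read 24.3 in WT and 35.2 in PAX8PPARg.

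Fat cell genes were far higher in the PAX8PPARg placebo pool. Of 26 measured genes of white adipocyte identity, 18 were past 2-fold and higher and 0 lower, against 4.28% and 5.50% of all genes, and the list median was 1.83 against -0.15 for all genes. Adipoq, the gene of the hormone adiponectin, read 328.8 in WT and 4509 in PAX8PPARg under placebo, a difference of 3.52, and 164.9 and 122.6 under RU486. Lep, the gene of leptin, read 58.7 and 922.9 (3.46), and Retn, the gene of resistin, 121.9 and 1371 (3.14). Of the 26 genes, 23 peaked on the PAX8PPARg placebo array, against 16% of all genes, and the summed signal of the list was 18804 in WT and 52216 in PAX8PPARg under placebo, with 8926 and 9123 under RU486. In RNA from whole tissue, more cells of a type and more RNA per cell cannot be told apart.

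The adipocyte genes that stood apart spanned hormone, storage and uptake functions. Cidec, which enlarges fat droplets, read 66.8 in WT and 683.7 in PAX8PPARg, and Plin4, a droplet coat protein gene, 69.3 and 715.6. Rbp4, the gene of the retinol carrier, read 126.3 and 1109 (2.79), and Pck1, of glyceride synthesis, 135.3 and 1579, although the second Pck1 probe set differed by -0.2. Some defining adipocyte genes differed far less. Fabp4, the fatty acid carrier of fat cells, read 5680.0 and 9047 on its brightest probe set (0.48), while its other 3 probe sets differed by 0.77 to 2.14. The promoter of Lep is shown because it was the only promoter of 19 adipocyte genes with the letters TTGCGCAA, the palindrome bound by C/EBP factors of fat cells, which 0.303% of 9887 promoters held (both strands). It is RefSeq, GRCm38.p6, 150 bases ending just before the start, with the match in capitals beginning 55 bases before the start.
Lep, chr6:29060071-29060220, plus strand: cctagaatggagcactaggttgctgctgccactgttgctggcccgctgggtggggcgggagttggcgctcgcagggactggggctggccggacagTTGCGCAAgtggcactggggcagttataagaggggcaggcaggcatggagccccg
Lists with medians below 0 held 1 such promoter too, as in the milk list (1 of 18) and the complement and acute phase list (1 of 15). The letters thus do not set the adipocyte list apart. A match is a description of letters, not of binding. At the low end of the list stood Sncg at -0.92 and the corepressor gene Nrip1 at -0.16, with Cidea at 0.26 and Mest at 0.35.

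Within lipid metabolism the genes did not share a direction. Of 21 lipogenesis genes, 6 were at least 2-fold higher and 1 lower, against 4.28% and 5.50% of all genes, with a median of 0.56. Dgat2, which makes triglycerides, read 159.2 and 1907 (3.27), Elovl6, which lengthens fatty acids, 209.0 and 1276 (2.33), and Fasn, the fatty acid synthase gene, 869.5 and 2429 (1.28). Srebf1, a transcription factor that activates lipogenesis, was instead lower, with 1276 in WT and 564.9 in PAX8PPARg (-1.34), and Thrsp (-0.42), Fads1 (-0.29) and Acly (-0.25) were below the median of all genes.

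The lipid droplet and lipolysis list was split in the same manner. Of its 12 genes, 4 were at least 2-fold higher and 3 lower, with a median of 0.84 that became -0.36 over the members at or above the level filter. Plin2, which coats droplets in most cells and milk fat globules, read 6089 in WT and 2011 in PAX8PPARg (-1.78), and Abhd5, the activator of fat breakdown, 4306 and 1355 (-1.85 and -1.79 for its probe sets). G0s2, an inhibitor of the lipase encoded by Pnpla2, read 2402 and 874.4 (-1.63). Pnpla2 itself read 648.7 and 1533 (1.03), and Lipe, another lipase gene, 42.9 and 165.6 (1.43). Plin2, Abhd5 and G0s2 were each highest on the WT placebo array.

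Known target genes of PPARg showed the same mixture. Of 21 measured, 7 were at least 2-fold higher and 2 lower, against 4.28% and 5.50% of all genes, with a median of 0.48. The higher ones were Adipoq, Pck1, Cidec, the glycerol channel gene Aqp7 (2.66), the fatty acid translocase gene Cd36 (2.17), Ucp1 (1.71) and Slc27a1 (1.03). The lower ones were Plin2 and Angptl4, an inhibitor of lipoprotein lipase, with a signal of 434.9 in WT (-1.33, and -0.3 for its second probe set). Other targets stood nearer 0, such as Fabp5 (-0.23), Pex11a (-0.33) and Ech1 (-0.13). The part of fat cells in these values was not tested.

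Genes of fatty acid oxidation stood near the median of all genes. Among 19 fatty acid oxidation genes, 0 were at least 2-fold higher and 1 lower, against 4.28% and 5.50% of all genes. Their median was -0.06, which turned positive without centring. The exception was Fabp3, a fatty acid carrier of muscle and lactating epithelium, with signals of 1735 in WT and 82.6 in PAX8PPARg (-4.34). The 27 genes of oxidative phosphorylation and the citrate cycle had a median of -0.24, which was 0.04 with quantile normalization, and 0 past 2-fold. Brown fat genes were low in signal, and 3 of 9 were at least 2-fold higher, Cox8b (81.9 and 532.4), Ucp1 (31.9 and 162.4) and Ebf2 (42.4 and 133.6).

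**Figure D2:**
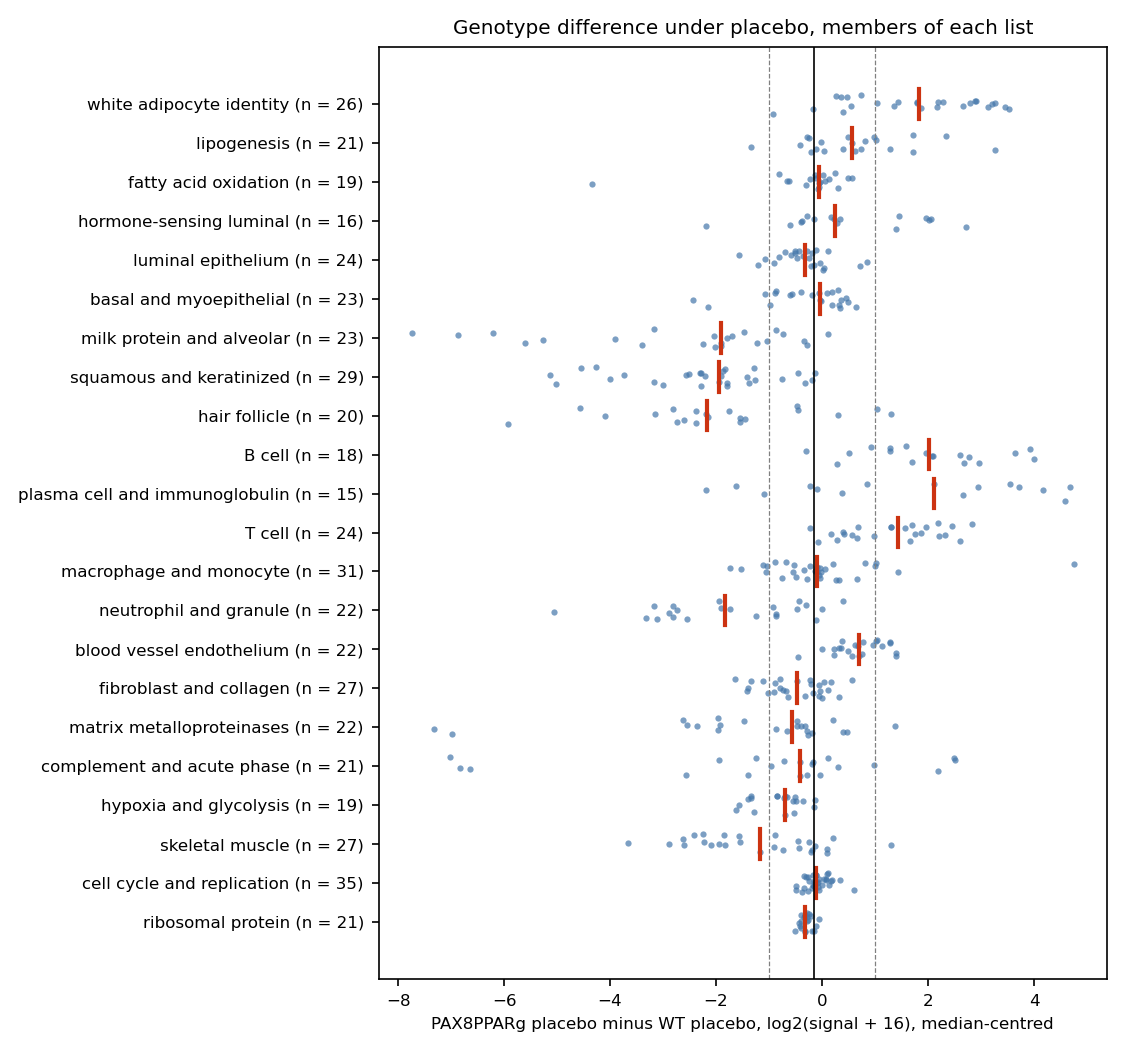
Members of 22 gene lists (points) by their difference between the PAX8PPARg and WT placebo arrays (log2), with list medians as red bars, the median of all genes (-0.15) as a black line and 2-fold as dashed lines. White adipocyte, B cell, plasma cell and T cell medians lie above 1, milk protein, squamous, hair, neutrophil and skeletal muscle medians below -1, and cell cycle and ribosomal genes close to the black line.

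Among genes of hormone-sensing luminal cells, the receptor genes Esr1 and Pgr and several known outputs of these receptors were higher in the PAX8PPARg placebo pool. Of 16 measured genes, 6 were at least 2-fold higher and 1 lower, against 4.28% and 5.50% of all genes, with a median of 0.25. Esr1, the estrogen receptor gene, read 105.6 on the WT placebo and 363.0 on the PAX8PPARg placebo array (1.45), and 78.3 and 2.3 on the WT and PAX8PPARg RU486 arrays. Pgr, the progesterone receptor gene, read 37.3 and 235.8 (2.05), with 37.9 and 78.0 under RU486. Foxa1, which opens chromatin for the estrogen receptor, read 247.0 and 1146 (1.95), with 41.5 and 33.6 under RU486. All of these were highest on the PAX8PPARg placebo array. Steroid and thyroid receptor genes as a list did not share this direction. Of 15 measured, 2 were at least 2-fold higher and 0 lower, with a median of 0.09 and Esrra lowest at -0.81.

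The paracrine signals of these cells stood higher as well. Tnfsf11 encodes RANKL, through which progesterone drives growth of neighbouring cells, and it read 668.5 in WT and 3139 in PAX8PPARg (2.01, and 1.86 for its second probe set), with 105.5 and 101.8 under RU486. Wnt4, another progesterone-induced signal, read 123.6 and 403.7 (1.40). Cited1, a coactivator of the estrogen receptor, read 239.3 and 1901 (2.72), the largest difference of the list. Tnfrsf11a, which encodes the receptor of RANKL, was lower, with 69.3 and 28.4 (-1.13), so ligand and receptor differed in opposite directions.

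Other genes of the same cells did not follow. Gata3, a transcription factor of all luminal cells, differed by 0.28, Greb1 read 3.4 within the background range in WT and 12 in PAX8PPARg, and Agr2 differed by -0.61. Xbp1, a regulator of secretion that is also used by plasma and milk-producing cells, read 5031 and 1249 (-2.19, with 4 probe sets between -2.4 and -1.8). Among 18 estrogen receptor targets, 4 were at least 2-fold higher and 1 lower with a median of -0.07. Besides Cited1 and Pgr these were the chemokine gene Cxcl12 (379.6 and 1584, 1.83) and Stc2 (944.8 and 3603, 1.72). Of 13 progesterone signalling genes, 4 were at least 2-fold higher and 2 lower, with a median of -0.39 and a mean of 0.23, so median and mean differed in sign.

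Targets of the glucocorticoid receptor gave 1 of 16 at least 2-fold higher, 4 lower and a median of -0.20. The higher gene was Zbtb16 (13.6 and 126.8, 2.08), and Fkbp5 differed by 0.39 and Sgk1 by 0.34. The metallothionein genes Mt1 (-1.24) and Mt2 (-1.03), Lcn2 (-1.25) and Angptl4 were lower. The 3 probe sets of the receptor gene Nr3c1 differed by 0.20, -0.16 and 0.09.

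**Figure D3:**
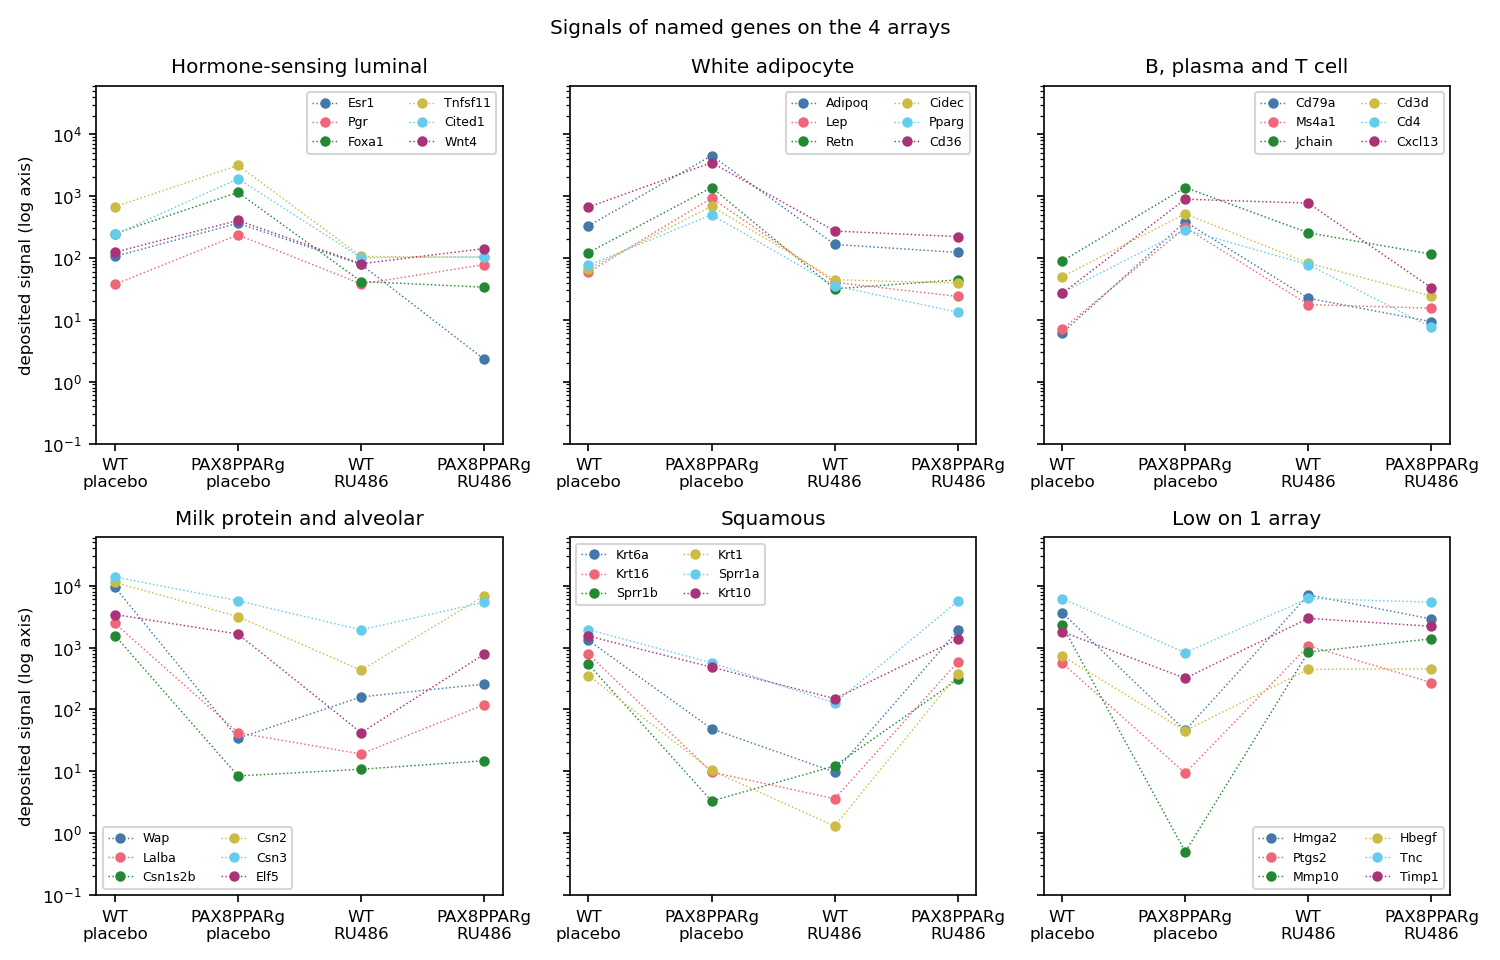
Deposited signals (log axis) of 36 named genes on the 4 arrays, in 6 panels by role, with dotted lines joining the points of a gene. Hormone-sensing, adipocyte and most lymphocyte genes peak on the PAX8PPARg placebo array, and milk protein genes are highest on the WT placebo array in most cases. Squamous genes are high on the WT placebo and PAX8PPARg RU486 arrays. The last panel holds genes picked for being low on the PAX8PPARg placebo array alone.

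General epithelial genes were close on the placebo arrays, with a list median that stayed below 0 under each scaling. Of 24 luminal epithelium genes, 0 were at least 2-fold higher and 3 lower, against 4.28% and 5.50% of all genes. The list median was -0.32. Epcam, a surface protein of all epithelia, read 6249 in WT and 5564 in PAX8PPARg (-0.36), and Krt18, a luminal keratin gene, 9097 and 7472 (-0.47). Cdh1, the E-cadherin gene, read 2403 and 1934 (-0.50), and Krt19 4618 and 8630 (0.71). The 3 lower genes were Muc1 (274.0 and 96.2, -1.56), Ovol1 (-1.22) and Krt7 (3687 and 1990.4, -1.07). The basal and myoepithelial list had a median of -0.04, which was above 0 without centring, with 3 of 23 genes lower. Those were Itgb4 (911.8 and 180.9, -2.43), Krt14 (5817 and 1475, -2.16) and Krt17 (508.6 and 267.0, -1.08), while the basal transcription factor gene Trp63 differed by 0.30 and Acta2, the smooth muscle actin gene, by -0.19.

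Milk genes were much lower in the PAX8PPARg placebo pool than these general epithelial genes. Of 23 milk protein and alveolar genes, 18 were at least 2-fold lower and 0 higher, against 5.50% and 4.28% of all genes, with a median of -1.91. The gene of whey acidic protein, Wap, read 9419 on the WT placebo, 34.2 on the PAX8PPARg placebo, 159.2 on the WT RU486 and 257.2 on the PAX8PPARg RU486 array, and its difference of -7.74 was the largest negative one of the 6197 genes. Lalba, the lactose synthase subunit gene, read 2456 and 42.0 under placebo (-5.60), and Csn1s2b, a casein gene, 1563 and 8.4 (-6.21). The milk lipase gene Cel (3300.3 and 82.4), the amino acid oxidase gene Lao1 (3259 and 16.1) and Olah, which ends fatty acid chains at the length found in milk (839.8 and 49.0), had the same form, and 20 of the 23 genes peaked on the WT placebo array, against 23% of all genes.

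The abundant caseins and their regulators differed less. Csn2, the beta casein gene, read 11273 in WT and 3159 in PAX8PPARg on its brighter probe set and 9678 and 2712 on the other, -2.02 for each, and Csn1s1 read 11569.5 and 2775 (-2.24). Elf5, the transcription factor that specifies alveolar cells, read 3415 and 1650 (-1.23), and Stat5a, which relays prolactin signals to milk genes, 2255 and 1399 (-0.87). The smallest differences were those of Mfge8, a milk fat globule protein also made by other cells (0.11), Atp2b2 (-0.29), Stat5b (-0.33) and Wfdc18 (-0.74). The differences of single milk genes thus ran from 0.11 to -7.74.

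Promoter stretches of Csn2 and Csn1s1 are shown because milk genes are known to answer to prolactin through STAT5. Each is the RefSeq sequence of build GRCm38.p6, 150 bases that end just before the annotated start, with letters that match TTCNNNGAA, the palindrome of STAT sites, in capitals.
Csn2, chr5:87699426-87699575, minus strand: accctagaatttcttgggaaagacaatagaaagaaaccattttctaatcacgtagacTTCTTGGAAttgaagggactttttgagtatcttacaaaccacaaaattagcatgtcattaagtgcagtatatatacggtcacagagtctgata
Csn1s1, chr5:87666058-87666207, plus strand: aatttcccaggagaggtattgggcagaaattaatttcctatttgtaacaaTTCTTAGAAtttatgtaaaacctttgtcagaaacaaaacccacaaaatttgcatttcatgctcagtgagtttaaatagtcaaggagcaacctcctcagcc
The match began 93 bases before the start in Csn2 and 100 bases before it in Csn1s1. In the window from 250 bases before to 50 after the start, read on both strands, 27.8% of 18 milk list genes and 8.45% of 9887 measured genes with a promoter held these letters. The share was as large in lists that were not lower, such as T cell genes (26.7% of 15) and fatty acid oxidation genes (4 of 16), so the letters do not set the milk list apart. A match of letters is a description of the sequence and shows no binding, and Csn2 and Csn1s1 are neighbouring members of 1 gene family.

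**Figure D4:**
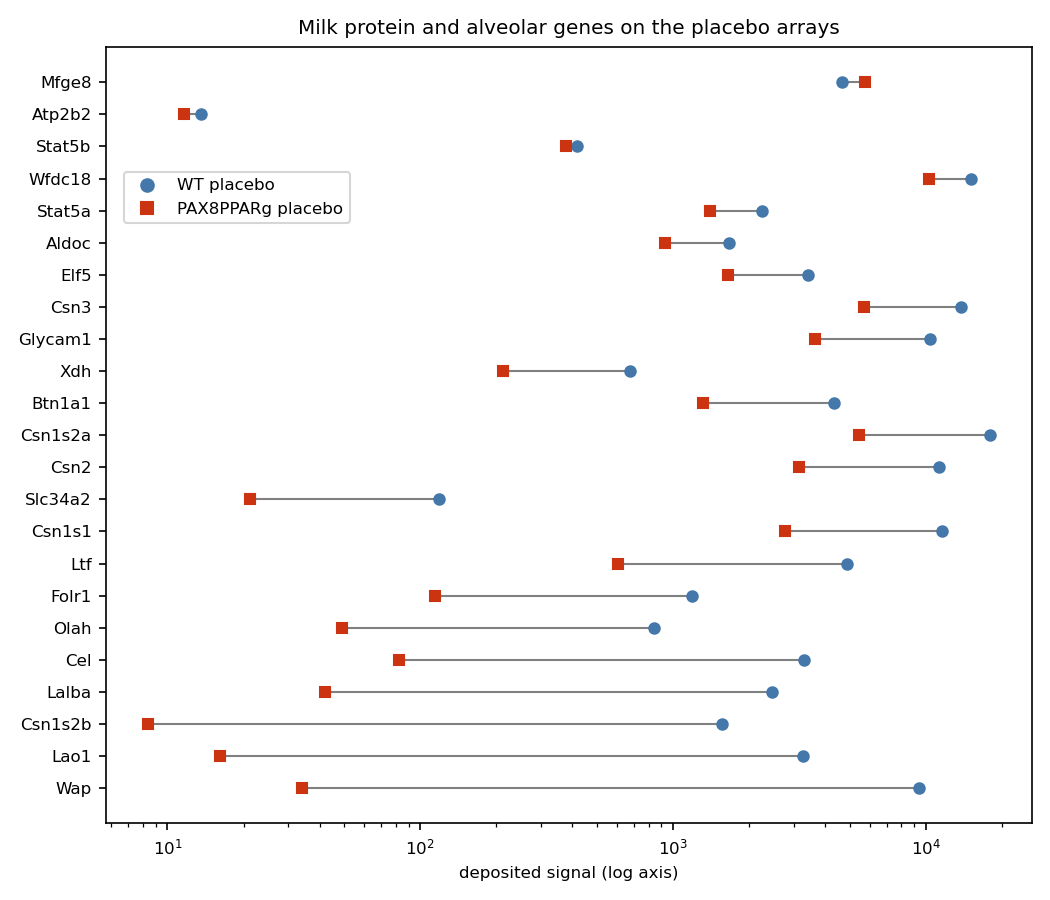
Deposited signals (log axis) of 23 milk protein and alveolar genes on the WT placebo (blue circles) and PAX8PPARg placebo (red squares) arrays, ordered by their difference. Mfge8 differs by 0.11 and Wap by -7.74, and the red square lies left of the blue circle in all rows except that of Mfge8.

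Keratinizing genes formed the second group with low values in the PAX8PPARg placebo pool. Of 29 genes of the squamous and keratinized list, 24 were at least 2-fold lower and 0 higher, against 5.50% and 4.28% of all genes. The list median was -1.94. Krt6a, a keratin gene of activated epidermis, read 1308 on the WT placebo and 48.6 on the PAX8PPARg placebo array (-4.55), and 9.7 and 1889.9 on the WT and PAX8PPARg RU486 arrays. Krt16 read 778.3 and 9.7 under placebo (-5.14), and Krt1, of differentiating epidermis, 352.3 and 10.3 (-4.0). Sprr1b, a cornified envelope gene, read 534.3 in WT and 3.3, within the background range, in PAX8PPARg. On the RU486 arrays the order of the genotypes was the opposite, and 0 of the 29 genes were highest on the PAX8PPARg placebo array.

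Protease and stefin genes of the epidermis followed, with Klk7 (890.8 and 37.5, -4.27), Stfa3 (429.6 and 22.0, -3.74) and Dmkn (800.5 and 100.4, -3.00). Krt13 and Sprr3 were within the background range on both placebo arrays, and Lgals7 differed by -0.33. Hair genes were lower as well, with 15 of 20 past 2-fold in this direction, 2 higher and a median of -2.17. Krt27, an inner root sheath keratin gene, read 1300.1 and 8.8 (-5.92), Tchh, the trichohyalin gene, 731.3 and 19.9 (-4.57), and Krt25 267.7 and 3.0, where 3.0 lies within the background range. The 2 higher ones were the transcription factor genes Lef1 (5.4, within the background range, and 44.2) and Msx2 (64 and 171.8), which are not particular to hair. Both lists are also expressed in skin, with summed hair list signals of 3917 in WT and 644.0 in PAX8PPARg, and the part of skin in the result was not tested.

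Matrix proteases and their inhibitors gave some of the largest differences of the comparison. Of 22 genes of this list, 9 were at least 2-fold lower and 1 higher, against 5.50% and 4.28% of all genes. The list median was -0.57. Mmp10, a stromelysin gene, read 2303 on the WT placebo and 0.5 on the PAX8PPARg placebo array, and 843.7 and 1385 on the WT and PAX8PPARg RU486 arrays. Mmp13, a collagenase gene, read 2357 and 5.4 under placebo, and 48.7 and 1175 under RU486. Both PAX8PPARg placebo signals were within the background range, so the differences of -7.33 and -6.98 are not exact. Mmp10 was thus low on 1 array of the 4 and Mmp13 on the PAX8PPARg placebo and WT RU486 arrays.

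Further proteases were lower by smaller amounts. Timp1, a protease inhibitor gene, read 1800.1 and 318.3 (-2.63), Mmp9 841.0 and 150.4 (-2.55), and Mmp12, the macrophage elastase gene, 725.8 and 149.2 (-2.36). The genes of the plasminogen system, Plat (-1.97), Plaur (-1.96) and Plau (-1.46), were lower too. Mmp11 (0.47), Timp3 (0.40) and Adamts1 (0.20) were higher by less than 2-fold, and Timp4, which fat cells make, read 18.1 and 85.5 (1.38). Mmp3 (1433 and 1304, -0.32) and Mmp2 (1534 and 1336, -0.39) stood near the median of all genes.

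Promoter stretches of 3 of these proteases and 2 cornified envelope genes are shown. The squamous and protease lists hold many promoters with the letters TGANTCA, where N is any base. These letters are a loose form of the AP-1 site, the element bound by Fos and Jun proteins. The sequences are RefSeq, GRCm38.p6, 150 bases ending just before the start, and capitals mark matches to TGANTCA.
Mmp13, chr9:7272364-7272513, plus strand: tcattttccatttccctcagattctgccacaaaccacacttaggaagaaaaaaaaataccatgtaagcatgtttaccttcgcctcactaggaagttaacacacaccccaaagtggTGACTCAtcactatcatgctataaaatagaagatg
Mmp10, chr9:7502192-7502341, plus strand: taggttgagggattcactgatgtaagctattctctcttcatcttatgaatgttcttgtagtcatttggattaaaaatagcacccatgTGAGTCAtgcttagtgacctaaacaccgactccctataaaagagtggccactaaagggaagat
Mmp3, chr9:7445672-7445821, plus strand: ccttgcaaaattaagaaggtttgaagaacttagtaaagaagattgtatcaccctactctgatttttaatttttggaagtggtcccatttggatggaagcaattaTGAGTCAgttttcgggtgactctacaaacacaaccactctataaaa
Sprr1b, chr3:92438780-92438929, minus strand: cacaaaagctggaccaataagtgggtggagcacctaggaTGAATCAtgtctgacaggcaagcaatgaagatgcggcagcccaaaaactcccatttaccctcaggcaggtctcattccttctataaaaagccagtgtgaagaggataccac
Ivl, chr3:92573736-92573885, minus strand: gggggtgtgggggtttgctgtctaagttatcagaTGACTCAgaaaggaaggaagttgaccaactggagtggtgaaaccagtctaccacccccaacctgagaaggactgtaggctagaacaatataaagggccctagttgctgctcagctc
The match began 35 bases before the start in Mmp13, 63 in Mmp10, 46 in Mmp3, 111 in Sprr1b and 116 in Ivl. It read TGAATCA in Sprr1b, and TGACTCA or TGAGTCA in the other stretches shown. Ivl, the involucrin gene, read 73.2 in WT and 1.9, within the background range, in PAX8PPARg. Mmp3, chosen for display after its value was seen, holds the letters and differed by only -0.32. The Mmp genes shown are neighbours on chromosome 9 and Sprr1b and Ivl on chromosome 3, and related neighbours share sequence by descent.

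Across the windows of 300 bases, on both strands, TGANTCA was found in 7.69% of 9887 measured genes, in 52.4% of 21 squamous genes and in 43.8% of 16 genes of the protease list. Milk and hair genes, with low list medians too, held it less often, with 16.7% of 18 and 0 of 14. It was found in 23.5% of 17 inflammation and prostaglandin genes (list median -0.56). In the interferon and MHC class I list, with a median of 0.66, it was found in 27.3% of 22 genes. A share above that of all genes was thus not limited to lists with low medians. Of the genes above the level filter, 13.1% of those at least 2-fold lower and 5.95% of those at least 2-fold higher held TGANTCA. Read the other way, 8.44% of 320 genes with the letters and 3.78% of 4732 without them were at least 2-fold lower. Within the squamous list, 10 of 11 genes with the letters and 8 of 10 without them were lower, with medians of -2.28 and -1.62. Most of its members were past 2-fold either way, so this count can hardly separate them. In the protease list these counts were 4 of 7 and 1 of 9, with medians of -1.955 and -0.2875. Among AP-1 subunit genes, Fosl1 read 228.7 in WT and 19.2 in PAX8PPARg (-2.99), whereas Fos read 695.4 and 1578 (0.97), Jun 1012 and 1577 (0.44) and Junb 38.1 and 41.0.

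Acute phase genes were split in the PAX8PPARg placebo pool. The serum amyloid genes Saa1 (8604 and 70.8), Saa2 (4090 and 30.7) and Saa3 (4393 and 23) had differences of -6.82, -6.65 and -7.01, and the related Saa1 and Saa2 transcripts may share probes. Lbp, which binds bacterial lipopolysaccharide, read 2199 and 409.7 (-2.57). The fibrinogen genes Fgg (202.2 and 1383, 2.49) and Fgb (70.3 and 541.3, 2.50) and the acute phase gene Orm1 (37.4 and 261.0, 2.18) were higher. The complement and acute phase list as a whole had 3 of 21 genes at least 2-fold higher and 7 lower, with a median of -0.41. Hepatocyte genes were low on both arrays, with Alb at 38.8 and 51.8 and 0 of 14 past 2-fold.

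Several prostaglandin and cytokine genes were far lower. Ptgs2, which encodes inducible cyclooxygenase, read 566.5 on the WT placebo and 9.3 on the PAX8PPARg placebo array (-4.72), and 1067 and 270.9 on the WT and PAX8PPARg RU486 arrays. Il1b, the interleukin 1 beta gene, read 1127 and 114.5 (-3.32), and its antagonist gene Il1rn 404.7 and 95.2 (-2.11). Of 20 genes of this list, 7 were at least 2-fold lower and 3 higher, with a median of -0.56. The higher ones were the prostaglandin receptor gene Ptger3 (109.0 and 627.6, 2.17) and the chemokine genes Cxcl15 (172.3 and 783.0, 1.89) and Cxcl12 (1.83).

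The neutrophil and granule list was lower as well. Of its 22 genes, 13 were at least 2-fold lower and 0 higher, against 5.50% and 4.28% of all genes, with a median of -1.82. The calprotectin genes S100a8 (1039.8 and 123.3, -3.11) and S100a9 (2366 and 394.1, -2.73) and the neutrophil attractant gene Cxcl5 (464.9 and 0.5, the latter within the background range) led it. Ltf, which milk-producing epithelium also makes, read 4880.3 and 604.3 (-3.17). The granule genes Elane, Camp and Ngp were at or near the background range on both arrays. Elane read 3.6 and 6.3, Camp 6.5 and 2.4, and Ngp 0.6 and 9.0. The part of neutrophils in the values of this list was not tested.

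Hmga2, Timp1, Inhba and Hbegf, picked after their values were seen, were far lower on the PAX8PPARg placebo array than on the others. Of the 6197 genes above the level filter, 34.4% were lowest on that array. Hmga2, a chromatin protein gene of embryonic and mesenchymal cells, read 3671 on the WT placebo, 45.8 on the PAX8PPARg placebo, 7073 on the WT RU486 and 2886 on the PAX8PPARg RU486 array, with differences of -6.09 to -5.61 over its 3 probe sets. Timp1 read 1800.1, 318.3, 2964 and 2204 in that order, and Inhba, which encodes the activin subunit, 2336, 120.5, 1185 and 1518. Hbegf, an EGF receptor ligand gene, read 734.4, 45.2, 445.3 and 452.7. On the log2 scale, the other arrays stood for each of these genes within a narrower range than their distance to the PAX8PPARg placebo array. Ereg, another ligand gene of that receptor, read 374.8 and 15.6 (-3.82) under placebo.

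Of 19 mesenchymal genes, 6 were at least 2-fold lower, 0 higher and 13 within 2-fold, with a median of -0.62. Cd44, a hyaluronan receptor gene, read 2396 and 604.7 (-2.15), S100a4 3109 and 1177 (-1.58) and Fn1, the fibronectin gene, 5745 and 2904 (-1.17). The transcription factor genes of the mesenchymal transition did not follow, with 0.64 for Snai2, 0.53 for Zeb2, 0.48 for Zeb1 and -0.31 for Twist1. Fibroblast and collagen genes had 6 of 27 lower by 2-fold or more, and a median of -0.47. Col1a1 read 8855 and 5462 (-0.89), Dcn 4527 and 6442 (0.32) and Sfrp2 2631 and 957.6 (-1.63), and Col12a1, a collagen gene of strained tissue, 1510.1 and 112.8 (-3.76).

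Lymphocyte genes were higher in the PAX8PPARg placebo pool. Of 18 B cell genes, 14 were at least 2-fold higher and 0 lower, against 4.28% and 5.50% of all genes. The list median was 2.02. Cd79a, a chain of the B cell receptor complex, read 6.1 within the background range on the WT placebo and 385.0 on the PAX8PPARg placebo array, with 22.3 and 9.3 under RU486. Cd79b read 21.2 and 626.9 (3.92), and Ms4a1, which encodes CD20, 7.0 within the background range and 310.2, with 3.6 for each probe set. Only 3 of the 18 genes reached the level filter, and over these the list median was 0.51, the value of Ly6d.

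Antibody genes had the largest positive differences of the 6197 genes above the level filter. Igkv8-30, a kappa light chain gene, read 215.9 in WT and 6783 in PAX8PPARg under placebo (4.68), and 3431 and 573.9 under RU486. Igk read 301.0 and 6502 (4.17), although its 4 probe sets ranged from -0.1 to 4.2, and Igha, the IgA heavy chain gene, 783.0 and 6958 (2.94). Jchain, which links IgA and IgM chains, read 88.5 and 1372 (3.54). Ighm, the IgM heavy chain gene, read 101.3 and 826.0 on its brightest probe set (2.65), and its 11 probe sets ranged from -0.22 to 3.81. Probe sets of antibody genes can read each other's transcripts, so single members are uncertain. Of 15 plasma cell and immunoglobulin genes, 8 were at least 2-fold higher and 3 lower, with a median of 2.12. The lower ones, Xbp1, Sdc1 (5450 and 2018, -1.62) and Prdm1 (218.4 and 109.4, -1.09), are also expressed by epithelium.

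T cell genes were higher too, with a median of 1.44. Of 24, 14 were at least 2-fold higher and 0 lower, against 4.28% and 5.50% of all genes. Cd3d, of the T cell receptor complex, read 49.7 in WT and 516.9 in PAX8PPARg (2.83), Cd3g 82.0 and 544.3 (2.33) and Cd3e 78.6 and 474.5 (2.18). Cd4, of helper cells, read 27.5 and 285.2 (2.60). Thy1 (-0.22) and Bcl11b (-0.08) lay near the median of all genes, and the 2 T cell genes at or above the level filter, Thy1 and Cd247 (0.29), had a median of 0.03. Cytotoxic genes were mixed, with 3 of 14 higher and 1 lower. Ccl5, a chemokine gene of activated T cells, read 201.0 and 1525 (2.64), whereas Gzmb, the granzyme B gene, read 418.8 and 41.2 (-3.12) and Gzma 203.0 and 122.9.

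Markers of a lymph node stood beside the lymphocyte genes. Cxcl13, the chemokine that draws B cells into follicles, read 26.6 on the WT placebo, 889.2 on the PAX8PPARg placebo, 766.5 on the WT RU486 and 32.8 on the PAX8PPARg RU486 array (4.22 under placebo). Cr2, of follicular B and dendritic cells, read 8.4, within the background range, and 201.8. Genes of high endothelial venules were low, with Fut7 at 4.5 and 47.8, Chst4 at 1.3 and 23.5 and Madcam1 at 9.4 and 27.7. Their WT signals were all within the background range, and the Chst4 difference of 1.00 became 0.27 with a pseudocount of 64. Of the 10 genes of the lymph node list, 3 were at least 2-fold higher and 1 lower, and the summed signal of 14112 in WT and 7208 in PAX8PPARg is mostly Glycam1 (10371 and 3649), which milk-producing epithelium also makes. The part of lymph node tissue in the lymphocyte values was not tested.

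Macrophage genes as a list were level, with a median of -0.09 that turned to 0.10 without centring. Of 31, 3 were at least 2-fold higher and 5 lower, against 4.28% and 5.50% of all genes. Csf1r, the receptor of macrophage growth factor, read 2886 and 2690 (-0.29), and Adgre1 116.2 and 128.2 (-0.06). Marco, a scavenger receptor gene, stood out with 21.4 on the WT placebo and 1135 on the PAX8PPARg placebo array (4.75), and 15.6 and 21.4 on the RU486 arrays. Its relative Msr1 read 581.8 and 189.1 (-1.73), and the chemokine gene Ccl2 274.0 and 98.1 (-1.54). Dendritic cell and MHC class II genes had a median of 0.32, with 3 of 18 higher and 1 lower, among them H2-Oa (35.6 and 195.3, 1.84), which B cells also express.

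Of 22 genes of blood vessel endothelium, 7 were at least 2-fold higher, 0 lower and 15 within 2-fold, with a median of 0.69, and 17 were highest on the PAX8PPARg placebo array, against 16% of all genes. Vwf, which encodes von Willebrand factor, read 118.7 and 390.8 (1.40), Kdr, the main VEGF receptor gene, 313.8 and 811.3 (1.14), and Cdh5 428.5 and 630.3 (0.35). Vegfa itself was lower, with 297.9 and 131.6 (-1.28). Flt1, which binds VEGF, differed by -0.44.

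Other tissues that can be excised with a mammary tumour also differed. Of 27 skeletal muscle genes, 14 were at least 2-fold lower and 1 higher, with a median of -1.17. Myh4, a fast myosin gene, read 839.4 and 61.3 (-3.66) and Acta1, the muscle actin gene, 987.0 and 139.5 (-2.88), and the summed signal of the list was 10833 in WT and 3121 in PAX8PPARg. Of 10 salivary gland genes, 3 were higher and 0 lower. Bpifa2 read 0.3 within the background range and 645.4, Amy1, the amylase gene, 61.5 and 1306, and Smr3a 4.4 within the background range and 110.4, while Klk1 (43.7 and 42.0) and Aqp5 (856.7 and 657.1) were not higher. The salivary list as a whole had a median of -0.06. The adipocyte and lymphocyte medians above 1, the 3 salivary genes and the muscle and hair medians below -1 thus came from the same pair of arrays. The part of each tissue in the other results was not tested.

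Genes of low oxygen and sugar use were lower, in sign, in all 19 members measured, of which Pdk1 and Bnip3 turned above 0 without centring. Signs alone say little here, since the median of all genes was -0.15 and 0 of 21 ribosomal protein genes were above 0. Of 19 hypoxia and glycolysis genes, 6 were at least 2-fold lower and 0 higher, with a median of -0.70. Adm, the adrenomedullin gene, read 214.8 and 69.6 (-1.62), Ndrg1 5482 and 2096 (-1.57), Slc2a1, the glucose transporter gene, 5298 and 2376 (-1.34) and Car9, a carbonic anhydrase gene of hypoxic tumours, 119.5 and 45.1 (-1.34). The smallest differences were those of Pdk1 (-0.14) and Bnip3 (-0.15), next to the median of all genes. Heat shock and unfolded protein genes had the same median of -0.70, with 4 of 17 lower, Xbp1, Trib3 (-1.29), Hspb1 (-1.20) and Hspa1a (-1.07).

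Genes of cell division stayed within 2-fold. Of 35 cell cycle and replication genes, 0 were past 2-fold in either direction, their median of -0.11 lay beside that of all genes, and its sign turned without centring. Mki67, the Ki-67 gene, read 3494 in WT and 3166 in PAX8PPARg (-0.33), Top2a 612.7 and 787.0 (0.16) and Pcna 3162 and 3149 (-0.20). Furthest from 0 was Foxm1 with 0.60, and its 4 probe sets ranged from -0.2 to 1.0. Among inhibitors of the cell cycle, those of the senescence response were lower, with Cdkn2a, which encodes p16 and p19ARF (120.3 and 33.9, -1.64), Cdkn2b (716.0 and 282.9, -1.48) and Cdkn1a, which encodes p21 (2979.8 and 1468, -1.20), whereas Cdkn1b (0.27), Cdkn1c (0.40) and Cdkn2c (0.40) were above 0. Of 21 genes of ribosomal proteins 0 were past 2-fold, and the median was -0.31.

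Wnt pathway genes that were lower included ligands, inhibitors and feedback targets. Of 36 genes, 11 were at least 2-fold lower and 3 higher, against 5.50% and 4.28% of all genes, with a median of -0.53. Wif1, a secreted Wnt inhibitor gene, read 874.9 and 235.4 (-2.02), Axin2, a feedback target, 775.2 and 349.3 (-1.31), and Lgr5 69.7 and 7.9, the latter within the background range. Sfrp2 (-1.63), Sfrp1 (-1.46) and Dkk3 (-1.14), inhibitors of the pathway, were lower as well, as were the ligand genes Wnt7b (-1.05) and Wnt10b (25.4 and 0.6, the latter within the background range). The higher genes were Wnt4 (1.40), Lef1 (1.30, from the background range) and Rspo1, an enhancer of Wnt signals (474.0 and 1256, 1.19).

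Of 24 claudin, cadherin and connexin genes, which join neighbouring cells, 3 were at least 2-fold higher, 6 lower and 15 within 2-fold, with a median of -0.32. The connexin genes Gjb2 (5385 and 857.6, -2.82), Gjb6 (990.3 and 47.3, -4.18), Gjb5 (-1.58) and Gja1 (5989.6 and 3229, -1.08) were lower, while the vessel connexin genes Gja4 (30.9 and 108.8, 1.22) and Gja5 (63.3 and 24.1, -1.17) differed in opposite directions. The epithelial claudin genes Cldn3 (-0.20), Cldn4 (-0.28) and Cldn7 (-0.50) stood near the median of all genes, and Cldn10 read 83.2 and 380.7 (1.81).

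The genotype difference was then set beside the same difference between the RU486 arrays, which shares no array with it. The RU486 arrays were less alike, with spike-in controls 1.58 (WT) and 2.44 times (PAX8PPARg) as bright as on the WT placebo array. There, 1341 of 12393 genes (10.8%) were at least 2-fold higher and 1255 (10.1%) lower in PAX8PPARg, and 448 (7.23%) and 634 (10.2%) of the 6197 genes above the level filter. Across the 6197 genes, the correlation between the pair of differences was -0.09 (Pearson) and 0.0003 (Spearman), where the genes of a pair of arrays share their libraries and are not independent. Of the 117 genes at least 2-fold higher under placebo, 25 were also higher under RU486 (21.4% of 117 and 5.58% of 448) and 28 were lower there (23.9% of 117 and 4.42% of 634). Of the 272 lower genes, 74 were also lower (27.2% of 272 and 11.7% of 634) and 75 were higher (27.6% of 272 and 16.7% of 448).

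The list medians also differed between the pairs. Under RU486 the squamous median was 3.46 against -1.94 under placebo, the milk protein median 1.42 against -1.91 and the hair median 1.21 against -2.17. The luminal epithelium median was 3.33 against -0.32 and the macrophage median -2.10 against -0.09, so these lists were past 2-fold under RU486 and within it under placebo. White adipocyte genes had a median of -0.19 under RU486 against 1.83, B cell genes -0.41 against 2.02 and T cell genes -0.76 against 1.44. Of the 55 lists, skeletal muscle was the only one past 2-fold in the same direction in both pairs, with -1.17 under placebo and -1.52 under RU486. The placebo value was -0.69 with a pseudocount of 64, and it also lay within 2-fold without centring. The difference between the pairs was not tested.

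**Figure D5:**
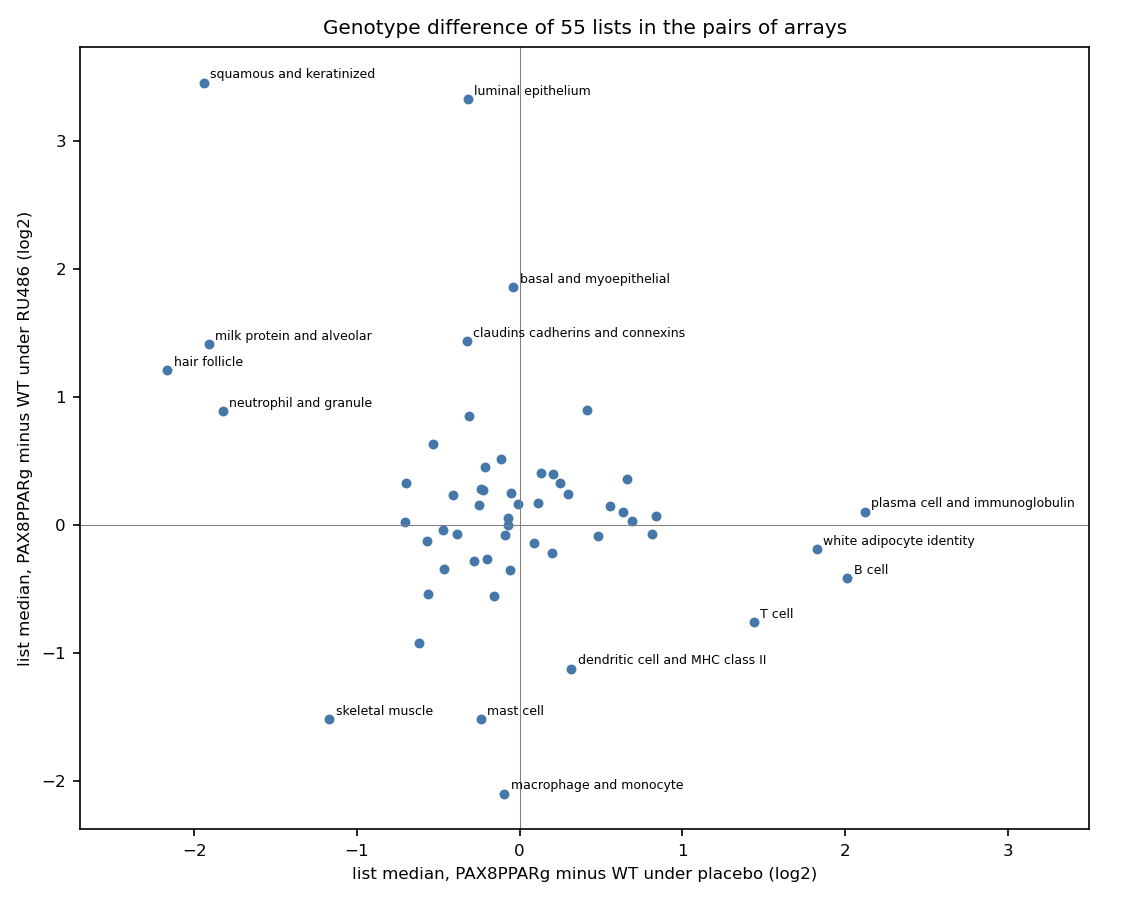
Medians of 55 gene lists for PAX8PPARg minus WT under placebo (horizontal, log2) and under RU486 (vertical, log2), with 1 point a list and names on lists past 2-fold in either pair. Squamous, milk protein and hair lists lie in the upper left, skeletal muscle in the lower left, and adipocyte and lymphocyte lists on the right near or below 0.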

How the data were processed

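Each of 4 Affymetrix mouse arrays gave 1 deposited intensity per probe set, on a linear scale that the authors had scaled to a common 2% trimmed mean of about 500.2. The sources used here do not name the algorithm behind these signals. Of 22690 probe sets, 64 controls, 691 with several gene symbols and 1555 without a symbol were left out, and symbols came from the platform annotation. Values were turned into log2(signal + 16) and centred on each array's median, and each of 12393 genes was read from its brightest probe set. Counts of genes used 6197 genes whose mean reached the median of all genes, and lists used all measured members. With 1 array a group no test was run and a threshold of 2-fold was used. Python 3.11.15, numpy 2.4.6, pandas 2.3.3 and matplotlib 3.10.9 were used, and the scripts were checked on simulated data.

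The genes named were the transgene parts and some receptors, the 20 largest differences each way, up to 8 members of a list with the largest difference in its direction and up to 4 others, defining members, and genes whose probe sets disagree. Members and lists were chosen with earlier results of these data known. The genes plotted by array and a few others were chosen after their values were seen. Alternatives covered the pseudocount, centring, quantile normalization, probe set averaging and the level filter.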

Additional observations from a re-analysis of the deposited data

Results flagged for a closer look

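Several results differed in direction between the genotype comparison under placebo and that under RU486, and the difference between the comparisons was not tested, since each rests on 1 array a group. The list medians were -1.91 under placebo and 1.42 under RU486 for milk protein and alveolar genes, -1.94 and 3.46 for squamous genes, and -2.17 and 1.21 for hair genes.

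Among the genes furthest above 0 under placebo, the antibody gene Igkv8-30 had 4.68 under placebo and -2.6 under RU486. For other lymphocyte genes the values were 4.17 and -1.82 for Igk, 3.54 and -1.10 for Jchain, 2.65 and -3.82 for Ighm, and 2.80 and -1.09 for Trav9d-3. The ribonuclease gene Ear3 had 2.39 and -2.05.

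Among the genes furthest below 0 under placebo, the serum amyloid genes had -7.01 and 2.98 (Saa3), -6.82 and 3.20 (Saa1), and -6.65 and 1.74 (Saa2). Mmp13 had -6.98 and 4.14, and Tnnt2 -4.63 and 1.33. Genes of stratified epithelium had -4.56 and 2.92 (Klk8), -4.55 and 6.15 (Krt6a), and -3.50 and 2.94 (Anxa8). Folr1 had -3.39 and 3.01, and Aqp3 -3.38 and 4.85.

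Outside the genes compared, the 4 control probe sets for mouse pyruvate carboxylase, an enzyme of glucose and fat synthesis, differed by 1.99, 1.21, 1.81 and 1.32 between the placebo arrays. The probe set of the gene itself, Pcx, read 133.2 in WT and 541.6 in PAX8PPARg (1.71).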

How the results depend on the processing

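No paired analysis was possible because each group had 1 array. Over the 6197 genes that passed the level filter, the main counts were 117 higher and 272 lower, and the higher count was 182 without centring, 531 without the level filter and 28 over the upper quartile of level. The lower count was 681 without the filter and 127 over the upper quartile. Under the other alternatives run, the higher count ran from 106 to 169 and the lower count from 192 to 284. The 9 lists past 2-fold kept their sign under each alternative run for them, which was 7 alternatives except for the hair list, where 0 genes passed the level filter and that alternative gave no value. Of the 9, 6 stayed past 2-fold throughout, and the B cell, T cell and skeletal muscle lists did not, the last lying within 2-fold without centring and with a pseudocount of 64 (-0.69). Values of low genes moved with the pseudocount, so the B cell median was 3.17 with 1 and 1.08 with 64 added to the signal. The level filter left 3 B cell and 2 T cell genes, with medians of 0.51 and 0.03. Differences that rest on a signal within the background range have no exact size.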

Other observations

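Genes of xenobiotic metabolism were higher in the PAX8PPARg placebo pool in part. Of 27 measured, 10 were at least 2-fold higher and 1 lower, with a median of 0.41. Ces1d, a carboxylesterase gene of fat and liver, read 119.3 in WT and 2220 in PAX8PPARg (3.86), and Adh1, an alcohol dehydrogenase gene, 117.9 and 692.2 (2.21). Gstm1, a glutathione transferase gene, read 656.3 and 2265 (1.57). The lower gene was Cyp1b1, which activates DMBA, with 1642 and 744.8 (-1.31), while Cyp1a1 was within the background range on both arrays and Nqo1 differed by 0.03.

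Interferon and MHC class I genes had 6 of 27 at least 2-fold higher, 0 lower and a median of 0.66. Usp18, an interferon-induced protease gene, read 29.3 and 189.2 (1.99), Cxcl9, a chemokine gene induced by interferon gamma, 102.3 and 416.9 (1.68), and B2m, the MHC class I light chain gene, 11334 and 13163 (0.03). In the IGF list 0 of 14 genes were higher and 1 lower, Igfbp3, an IGF carrier gene, with 1647 and 637.2 (-1.54). Among EGF receptor ligands, Nrg4, which fat cells secrete, read 95.4 and 734.1 (2.56). Cholesterol synthesis genes had 1 of 14 past 2-fold, Cyp51 (1006 and 491.8, -1.20).

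Probe sets with no gene symbol or with several, 2246 in all, gave 111 (4.94%) at least 2-fold higher and 95 (4.23%) lower. Their differences reached 5.78 (10.9 in WT and 1673.8 in PAX8PPARg) and -5.77 (10128.5 and 195.6). The former is past the 4.68 of Igkv8-30, the largest positive difference of the 6197 genes above the level filter.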
